A study of Mus musculus with 10 samples.

Results

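Elf5, Ehf, Cd14, Ltf and Epcam are genes of the luminal mammary epithelium, and their expression was followed here through 5 cell populations sorted from the mouse mammary gland. They were taken as the probe sets whose only annotated symbol was 1 of these 5 names, which gave 8 of the 3663 probe sets in the table and 5 of its 2560 named genes. Elf5 had 2 probe sets, Ehf had 3, and Cd14, Ltf and Epcam had 1 each. The samples were 10 Affymetrix arrays, 2 for each population, of RNA from mammary glands of virgin FVB females aged 6 to 8 weeks. All mice were of this strain and untreated as far as the labels say, and the cells were sorted after staining for CD24, CD49f (integrin alpha 6) and Thy-1, while the methods also list antibodies to CD45, CD31 and Ter119, which mark blood and endothelial cells, and to CD140α, a receptor of mesenchymal cells. The luminal populations were CD24highCD49fmed, which the submitters call luminal progenitor cells, and CD24medCD49f-/low, which they call differentiated luminal cells. The basal populations were Thy-1-CD24medCD49fhigh (called progenitor cells), Thy-1+CD24medCD49fhigh (called stem cells) and CD24medCD49fmed (called myoepithelial cells), and the study's text has a CD24lowCD49fmed gate where the labels have CD24medCD49fmed. Each array is RNA of a bulk sort, so a gate that holds several kinds of cell is read as their mixture.

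The mammary duct has an inner luminal layer and an outer basal layer that contracts around it. Luminal progenitors proliferate and give rise to the alveolar cells that make milk. Elf5 and Ehf encode transcription factors of the ETS family, which share a DNA-binding domain that recognises a GGAA core. Elf5 acts downstream of the prolactin receptor and is required for alveolar development, and Ehf is an ETS factor restricted to epithelia. Cd14 encodes a surface co-receptor that hands bacterial lipopolysaccharide to Tlr4. Ltf encodes lactoferrin, a secreted iron-binding protein of milk and mucosal fluids. Epcam encodes a cell adhesion molecule of simple epithelia.

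Ehf and Elf5 lie next to each other on mouse chromosome 2, with 0 protein-coding genes and 2 long non-coding RNA genes between them in the GRCm38.p6 annotation. The 250 bases before an annotated start are shown for Elf5, Ltf and Epcam, since 2 of the 5 genes encode factors that bind the GGAA core and the 5 genes moved together over the arrays. The windows came from RefSeq (GRCm38.p6) for 3 of the 5 genes, all on the plus strand, and capitals mark GGAA on either strand (TTCC on the strand shown). Elf5 has 2 annotated starts.
Elf5 start 1, chr2:103411848-103412097: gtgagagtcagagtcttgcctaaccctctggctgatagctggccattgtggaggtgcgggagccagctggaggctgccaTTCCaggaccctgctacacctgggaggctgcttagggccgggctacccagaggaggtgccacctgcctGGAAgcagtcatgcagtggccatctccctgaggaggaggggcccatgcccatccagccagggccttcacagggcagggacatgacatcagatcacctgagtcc
Elf5 start 2, chr2:103423818-103424067: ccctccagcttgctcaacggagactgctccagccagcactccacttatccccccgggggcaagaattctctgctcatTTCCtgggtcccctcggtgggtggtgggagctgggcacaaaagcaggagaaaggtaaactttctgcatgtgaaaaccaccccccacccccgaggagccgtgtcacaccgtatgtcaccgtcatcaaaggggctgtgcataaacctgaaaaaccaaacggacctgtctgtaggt
Ltf, chr9:111019042-111019291: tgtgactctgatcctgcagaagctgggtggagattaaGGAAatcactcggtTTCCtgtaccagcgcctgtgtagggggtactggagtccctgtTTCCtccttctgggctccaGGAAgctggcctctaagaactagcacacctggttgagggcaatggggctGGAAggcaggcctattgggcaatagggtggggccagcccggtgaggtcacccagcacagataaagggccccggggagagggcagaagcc
Epcam, chr17:87635729-87635978: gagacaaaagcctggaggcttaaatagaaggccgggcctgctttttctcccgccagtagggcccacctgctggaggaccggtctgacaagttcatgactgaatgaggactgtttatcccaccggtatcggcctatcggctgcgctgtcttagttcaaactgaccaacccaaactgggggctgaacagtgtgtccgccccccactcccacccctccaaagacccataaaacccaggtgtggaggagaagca
The GGAA core occurred 2 times before the first Elf5 start, 1 time before the second, 5 times before the Ltf start and 0 times before the Epcam start. Over all 32851 windows of this length, 93.4% held it, so its presence is common. The longer ETS sequence CCGGAAG (6.91% of windows) and the STAT sequence TTCNNNGAA (7.02% of windows) were searched on both strands and were in none of these 4 windows. A match or its lack describes these letters only.

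The values are log2 expression centred by the authors at 0 for each probe set over the 10 arrays, so a value says how far an array lies above or below that gene's own mean, and levels of different genes cannot be set against each other. Several arrays stood apart from their partners before any of these genes was considered. Across all probe sets the CD24medCD49f-/low arrays correlated at 0.364 with each other, and CD24medCD49f-/low replicate 1 was closest to CD24highCD49fmed replicate 1 (0.761). CD24medCD49f-/low replicate 2 was closest to CD24highCD49fmed replicate 2 (0.596). Thy-1+CD24medCD49fhigh replicate 1 was closest to CD24medCD49fmed replicate 2 (0.836, against 0.449 with its partner), while the CD24highCD49fmed pair correlated at 0.924. Thy-1+CD24medCD49fhigh replicate 2, Thy-1-CD24medCD49fhigh replicate 1 and both CD24medCD49fmed arrays were also closest to an array of another basal population. Array medians ran between -0.43 and 0.17. All 16 basal and myoepithelial marker genes were in the table, and 16 were called lower in CD24highCD49fmed and 15 in CD24medCD49f-/low than in the mean of the basal populations. Of all features 30.6% and 27.5% were called lower in these comparisons. For the comparison of CD24medCD49f-/low with the basal mean, the 5 genes are given with and without each CD24medCD49f-/low array, and other genes and list counts are given so where the call was lost or the value moved by over 1.5 times.

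All 5 genes were higher in both luminal populations than in the mean of the basal populations, and none differed between the 2 luminal populations beyond the spread between arrays. Against single basal populations, CD24medCD49f-/low was not called over Thy-1-CD24medCD49fhigh for Elf5 (limma adjusted p = 0.0586) or Epcam (limma adjusted p = 0.0747). Nor was it called over Thy-1+CD24medCD49fhigh for Epcam (limma adjusted p = 0.0880). On each of the 4 luminal arrays every one of the 5 genes lay above its value on each of the 6 basal arrays. This complete separation held for 23.8% of the 2932 features tested, a feature being a named gene or a probe set without exactly 1 symbol. It is that of gene means, and luminal and basal arrays overlapped for the single probe sets 1419556_at of Elf5 and 1419475_a_at of Ehf. The lowest mean of every one of the 5 genes was that of CD24medCD49fmed. Both luminal means above all 3 basal means, with CD24medCD49fmed lowest, was a pattern of 19.3% of all features. Without the condition on CD24medCD49fmed it was a pattern of 42.9%. Fewer cells that express a gene and less of its RNA per cell cannot be told apart in these bulk sorts.

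**Figure D1:**
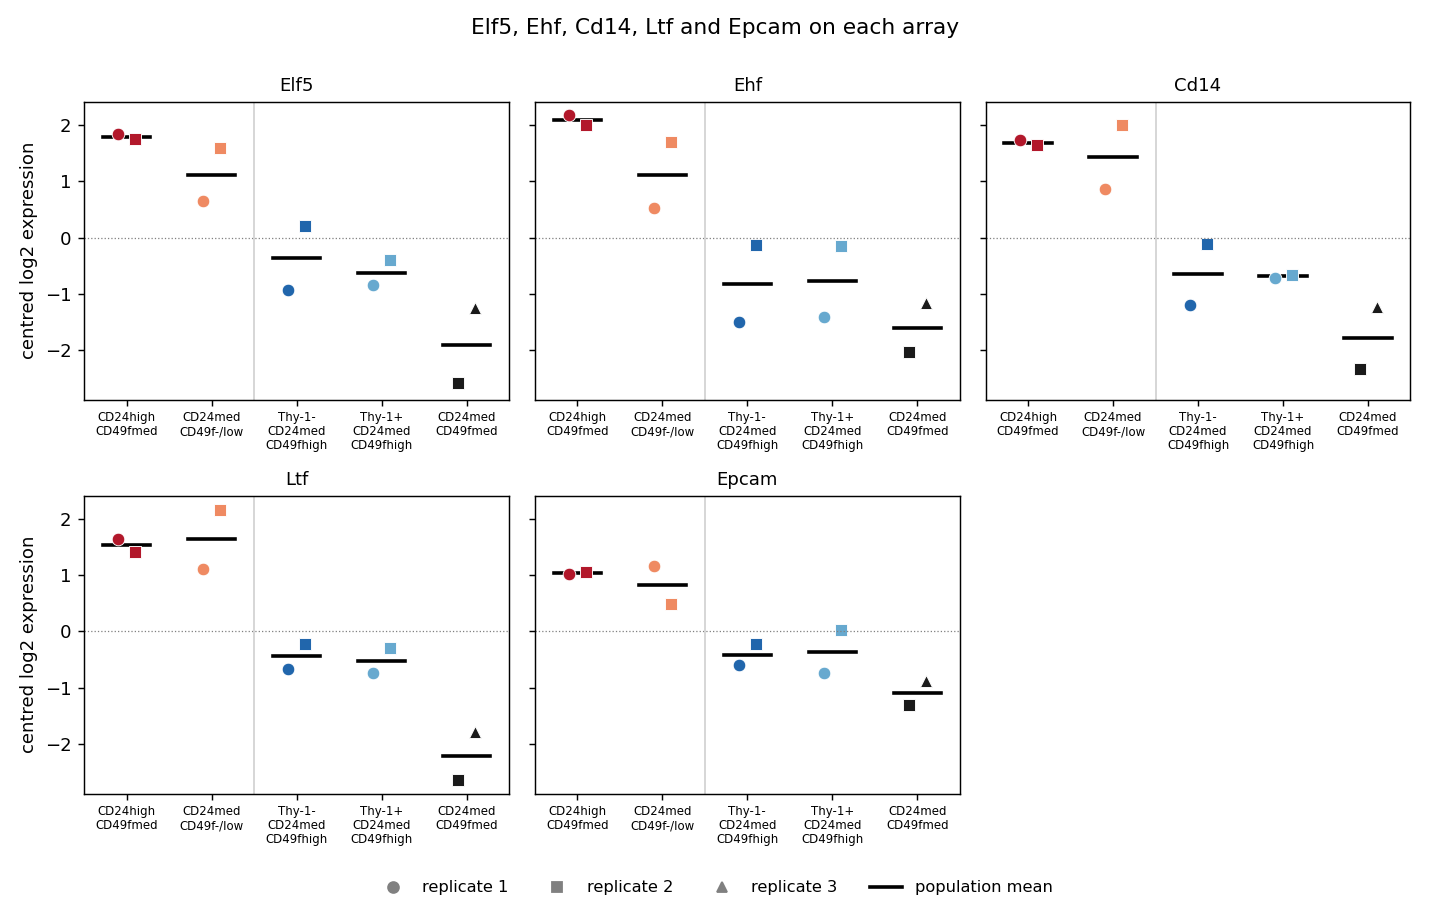
Centred log2 expression (vertical axis) of Elf5, Ehf, Cd14, Ltf and Epcam on each of the 10 arrays, by population (horizontal axis, luminal populations left of the grey line). Points are arrays, shaped by replicate number, and bars are population means. In each panel the 4 luminal arrays sit above the 6 basal arrays and the CD24medCD49fmed mean is the lowest.

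Elf5 was at 1.84 and 1.75 in CD24highCD49fmed cells (centred log2) and at 0.64 and 1.58 in CD24medCD49f-/low cells. It was at -0.93 and 0.20 in Thy-1-CD24medCD49fhigh cells, at -0.85 and -0.40 in Thy-1+CD24medCD49fhigh cells, and at -2.58 and -1.25 in CD24medCD49fmed cells. The luminal and basal arrays did not overlap, but Thy-1-CD24medCD49fhigh replicate 2 came within 0.44 of CD24medCD49f-/low replicate 1. Elf5 rose by 2.76 ± 0.47 on the log2 scale (SE), or 6.78-fold, in CD24highCD49fmed over the mean of the basal populations (limma adjusted p = 6.86e-05). It rose by 2.08 ± 0.47, or 4.23-fold, in CD24medCD49f-/low over the same basal mean (limma adjusted p = 0.00158). These comparisons share the 6 basal arrays. Without CD24medCD49f-/low replicate 1 the second difference was 2.55, and without replicate 2 it was 1.61, and Elf5 passed the test in both cases.

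Ehf, the neighbour of Elf5, was at 2.17 and 2.01 in CD24highCD49fmed cells and at 0.52 and 1.69 in CD24medCD49f-/low cells. It was at -1.50 and -0.14 in Thy-1-CD24medCD49fhigh cells, at -1.40 and -0.14 in Thy-1+CD24medCD49fhigh cells, and at -2.03 and -1.16 in CD24medCD49fmed cells. In both Thy-1 populations replicate 1 was low and replicate 2 lay near the gene's mean, and neither reached a luminal array. Ehf had the largest difference of the 5 genes in CD24highCD49fmed over the basal mean, at 3.15 ± 0.49 or 8.88-fold (limma adjusted p = 3.01e-05). In CD24medCD49f-/low over the basal mean it rose by 2.17 ± 0.49, or 4.49-fold (limma adjusted p = 0.00166). That difference was 2.75 without CD24medCD49f-/low replicate 1 and 1.58 without replicate 2, past the test in both.

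Cd14, the lipopolysaccharide co-receptor, was at 1.73 and 1.64 in CD24highCD49fmed cells and at 0.86 and 2.00 in CD24medCD49f-/low cells. It was at -1.19 and -0.11 in Thy-1-CD24medCD49fhigh cells, at -0.71 and -0.67 in Thy-1+CD24medCD49fhigh cells, and at -2.33 and -1.22 in CD24medCD49fmed cells. The highest array was CD24medCD49f-/low replicate 2, and the gap between the lowest luminal and the highest basal array was 0.97. Cd14 rose by 2.72 ± 0.46 (6.61-fold) in CD24highCD49fmed over the basal mean (limma adjusted p = 6.83e-05). It rose by 2.47 ± 0.46 (5.54-fold) in CD24medCD49f-/low over the basal mean (limma adjusted p = 0.000327), with 3.04 without CD24medCD49f-/low replicate 1 and 1.90 without replicate 2.

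Ltf, the gene for lactoferrin, was at 1.65 and 1.42 in CD24highCD49fmed cells and at 1.11 and 2.16 in CD24medCD49f-/low cells. It was at -0.66 and -0.22 in Thy-1-CD24medCD49fhigh cells, at -0.74 and -0.30 in Thy-1+CD24medCD49fhigh cells, and at -2.64 and -1.78 in CD24medCD49fmed cells. Of the 5 genes it had the widest gap between the lowest luminal and the highest basal array, at 1.33, and it was the only one whose CD24medCD49f-/low mean lay above its CD24highCD49fmed mean. Ltf rose by 2.59 ± 0.44 (6.01-fold) in CD24highCD49fmed over the basal mean (limma adjusted p = 6.71e-05). It rose by 2.69 ± 0.44 (6.46-fold) in CD24medCD49f-/low over the basal mean (limma adjusted p = 8.78e-05), with 3.22 without CD24medCD49f-/low replicate 1 and 2.17 without replicate 2.

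Epcam, the adhesion molecule, was at 1.02 and 1.06 in CD24highCD49fmed cells and at 1.15 and 0.49 in CD24medCD49f-/low cells. It was at -0.60 and -0.23 in Thy-1-CD24medCD49fhigh cells, at -0.74 and 0.03 in Thy-1+CD24medCD49fhigh cells, and at -1.31 and -0.87 in CD24medCD49fmed cells. It is the only one of the 5 genes that was higher on CD24medCD49f-/low replicate 1 than on replicate 2. Epcam rose by 1.66 ± 0.42 (3.16-fold) in CD24highCD49fmed over the basal mean (limma adjusted p = 0.00202). It rose by 1.44 ± 0.42 (2.71-fold) in CD24medCD49f-/low over the basal mean (limma adjusted p = 0.00940), but without CD24medCD49f-/low replicate 1 the difference of 1.11 no longer passed (limma adjusted p = 0.0752), and without replicate 2 it was 1.77. Its single probe set, 1447899_x_at, belongs to a class whose probes can match more than 1 sequence, so its values are less certain than those of the other genes.

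In the luminal comparisons 5 of 5 genes were called higher in CD24highCD49fmed than in the basal mean, where 44.0% of all features were, and 5 of 5 were called higher in CD24medCD49f-/low, where 18.3% of all features were. The share of features called lower was 30.6% in the CD24highCD49fmed and 27.5% in the CD24medCD49f-/low comparison. The median difference over all features was 0.41 in the CD24highCD49fmed comparison and -0.17 in the CD24medCD49f-/low comparison. With array medians set to 0 these medians moved to 0.08 and -0.01, and the share of higher calls went to 49.7% in both, against 59.0% and 39.9% as deposited. The range of the 10 arrays was 4.42 for Elf5 (rank 129 among the 2932 features), 4.20 for Ehf, 4.33 for Cd14 and 4.80 for Ltf (rank 73). Epcam had a range of 2.46 and rank 1469, in the middle of the table.

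**Figure D2:**
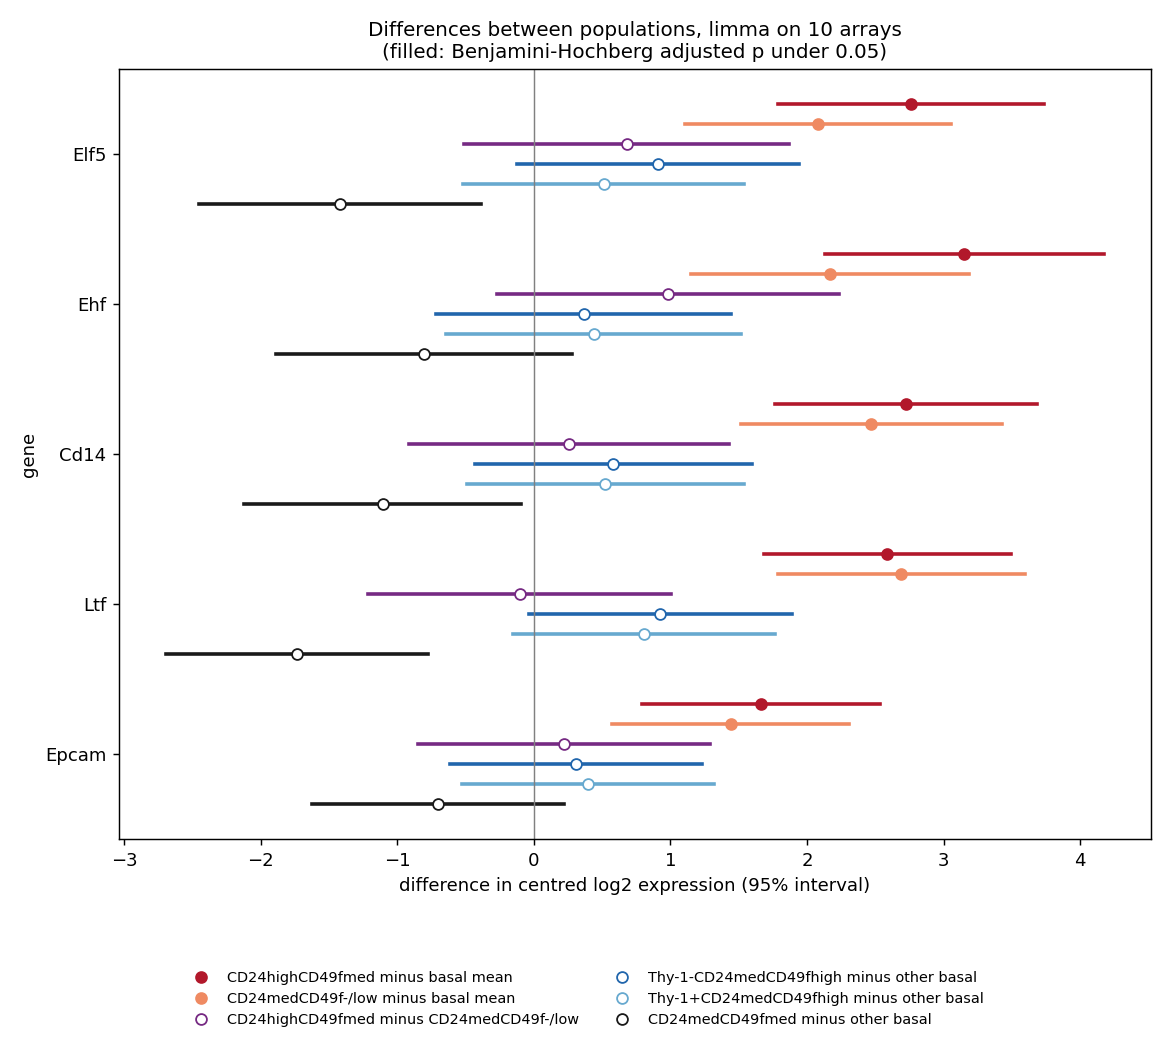
Differences in centred log2 expression (horizontal axis) with 95% intervals for each gene (vertical axis) in 6 comparisons, from limma on the 10 arrays. Filled points passed an adjusted p of 0.05, which all 5 genes did in both comparisons of a luminal population with the basal mean and none did in the other 4 comparisons.

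The 2 luminal populations were compared to ask whether the genes mark the gate that is called luminal progenitor. Elf5 was 0.68 ± 0.57 higher in CD24highCD49fmed than in CD24medCD49f-/low (95% interval -0.51 to 1.87, limma adjusted p = 0.544). The difference was 0.98 ± 0.60 for Ehf (95% interval -0.27 to 2.23), 0.26 ± 0.56 for Cd14 (-0.92 to 1.43), -0.10 ± 0.53 for Ltf (-1.21 to 1.00) and 0.22 ± 0.51 for Epcam (-0.84 to 1.29). None of the 5 genes was called, in a comparison where limma called 6 of 2932 features (0.205%) and 451 had an unadjusted p under 0.05. The intervals leave room for a 3.66-fold higher level of Elf5 in CD24highCD49fmed, so equal levels were not shown. These values therefore did not set CD24highCD49fmed apart as the population with the highest expression, and the 5 genes are called luminal here. The difference for Cd14 turned to -0.32 without CD24medCD49f-/low replicate 1 and that for Epcam to -0.11 without replicate 2, and that for Ltf turned to 0.42 without CD24medCD49f-/low replicate 2 and to 0.01 without CD24highCD49fmed replicate 2. The median of all features in this comparison was 0.35 as deposited and -0.13 with array medians set to 0, and under that scaling Cd14 was at -0.23 and Epcam at -0.26.

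Cell cycle genes were read beside these values. Of 19 measured genes of G2 and mitosis limma called 1 between the luminal populations, Ect2 (3.07 ± 0.62), and 14 had an unadjusted p under 0.05. Their median was 0.49 and 0.75 on the CD24highCD49fmed arrays and -1.30 and -0.66 on the CD24medCD49f-/low arrays. It was -0.12 and 1.26 on the Thy-1-CD24medCD49fhigh, -0.18 and 0.42 on the Thy-1+CD24medCD49fhigh and -0.81 and 0.06 on the CD24medCD49fmed arrays. Thy-1-CD24medCD49fhigh replicate 2 thus had the highest median of all arrays, and it also had the highest basal value of Elf5. The part of the cell cycle in the values of Elf5, Ehf, Cd14, Ltf and Epcam was not tested.

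Elf5 is used as a luminal marker, and its values in the 3 basal populations were therefore read on their own. Its mean was -0.36 in Thy-1-CD24medCD49fhigh, -0.63 in Thy-1+CD24medCD49fhigh and -1.91 in CD24medCD49fmed cells. Thy-1-CD24medCD49fhigh replicate 2, at 0.20, was the only basal array above the gene's overall mean, and both CD24medCD49fmed arrays were below the other 4 basal arrays. Elf5 in Thy-1-CD24medCD49fhigh cells was 0.91 ± 0.50 above the mean of the other basal populations (95% interval -0.12 to 1.94), which limma did not call (adjusted p = 0.999). This difference was 0.34 without Thy-1-CD24medCD49fhigh replicate 2 and 1.48 without Thy-1-CD24medCD49fhigh replicate 1. In Thy-1+CD24medCD49fhigh cells the difference from the other basal populations was 0.51 ± 0.50 (95% interval -0.52 to 1.54), and in CD24medCD49fmed cells it was -1.42 ± 0.50 (95% interval -2.45 to -0.39, unadjusted p = 0.00920, limma adjusted p = 0.99953). Neither was called.

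The other 4 genes were also compared among the basal populations. In Thy-1-CD24medCD49fhigh cells against the other basal populations the differences were 0.93 ± 0.46 for Ltf, 0.58 ± 0.49 for Cd14, 0.36 ± 0.52 for Ehf and 0.31 ± 0.44 for Epcam. That of Cd14 was 0.04 without Thy-1-CD24medCD49fhigh replicate 2 and 1.12 without Thy-1-CD24medCD49fhigh replicate 1. None of the 5 genes was called there, where limma called 2 features (0.0682%) and 77 had an unadjusted p under 0.05. The study placed Elf5 and Ltf in its own gene set for this population from these arrays, so their higher values there are not independent evidence. The study's text itself describes Elf5 as enriched in CD24medCD49f-/low luminal cells of the BL6 strain, whose arrays are not among those read here. In Thy-1+CD24medCD49fhigh cells 0 of the 5 genes and 0 features were called by limma (64 with an unadjusted p under 0.05), and the 5 differences lay between 0.39 for Epcam and 0.81 for Ltf. In CD24medCD49fmed cells 0 of the 5 genes and 1 feature (0.0341%) were called, with 52 features at an unadjusted p under 0.05. The largest difference was that of Ltf, at -1.73 ± 0.46 (unadjusted p = 0.00115, limma adjusted p = 0.481), and those of Cd14, Ehf and Epcam were -1.10, -0.80 and -0.70. Both CD24medCD49fmed arrays lay below the other 4 basal arrays for Elf5, Cd14, Ltf and Epcam, a pattern of 4.20% of all features, while for Ehf CD24medCD49fmed replicate 3 lay between the Thy-1 arrays.

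Rank products, the test named in the study's methods, gave a different count in these basal comparisons. At an unadjusted permutation p under 0.01 it called Elf5 (p = 7.8e-05), Ltf (p = 3.1e-05) and Cd14 (p = 0.00501) in Thy-1-CD24medCD49fhigh cells, together with 372 of 2932 features. It called Ltf in Thy-1+CD24medCD49fhigh cells among 297 features, and all 5 genes in CD24medCD49fmed cells among 318 features. It pairs every array of one side with every array of the other and so counts arrays more than once.

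Markers of luminal cells were read beside these basal values. The median of the 11 luminal progenitor markers other than the 5 genes was -0.80 and 0.03 in Thy-1-CD24medCD49fhigh, -0.56 and -0.19 in Thy-1+CD24medCD49fhigh, and -1.57 and -0.97 in CD24medCD49fmed cells. It was thus highest on Thy-1-CD24medCD49fhigh replicate 2, the array with the highest basal value of Elf5. The median of the 14 shared luminal markers other than the 5 genes was -1.07 and -0.33 in Thy-1-CD24medCD49fhigh, -0.56 and 0.39 in Thy-1+CD24medCD49fhigh, and -1.05 and 0.06 in CD24medCD49fmed cells. It was highest on Thy-1+CD24medCD49fhigh replicate 2 and CD24medCD49fmed replicate 3, where Elf5 was at -0.40 and -1.25, and so did not follow the order of Elf5. In the 3 basal comparisons limma called 0 of the 14 luminal progenitor and 0 of the 16 shared luminal markers measured. An unadjusted p under 0.05 was reached by 2 of the progenitor markers in Thy-1-CD24medCD49fhigh and 6 in CD24medCD49fmed, and by 0 in Thy-1+CD24medCD49fhigh, with Elf5 and the other members of the list counted, and by 0 of the shared markers in each. Luminal cells within the basal sorts and expression by basal cells cannot be told apart here, and the part of either was not tested.

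The order of the population means was CD24highCD49fmed, CD24medCD49f-/low, Thy-1-CD24medCD49fhigh, Thy-1+CD24medCD49fhigh, CD24medCD49fmed for Elf5 and Cd14. For Ehf and Epcam the Thy-1 populations changed places, and for Ltf the luminal populations did. Of the 20 pairs of neighbours in these orders, limma called 3 beyond their spread. They were CD24medCD49f-/low over Thy-1+CD24medCD49fhigh for Ehf (1.88 ± 0.60, adjusted p = 0.0280), CD24medCD49f-/low over Thy-1-CD24medCD49fhigh for Cd14 (2.08 ± 0.56, adjusted p = 0.00982) and CD24highCD49fmed over Thy-1-CD24medCD49fhigh for Ltf (1.97 ± 0.53, adjusted p = 0.00535). The share of all features called higher was 7.23% for CD24medCD49f-/low over Thy-1+CD24medCD49fhigh, 9.86% for CD24medCD49f-/low over Thy-1-CD24medCD49fhigh and 38.1% for CD24highCD49fmed over Thy-1-CD24medCD49fhigh. Among the basal pairs the share of features called in either direction was 0.0682% for Thy-1-CD24medCD49fhigh over Thy-1+CD24medCD49fhigh, 0.102% for Thy-1-CD24medCD49fhigh over CD24medCD49fmed and 0% for Thy-1+CD24medCD49fhigh over CD24medCD49fmed. For Elf5 the difference of CD24medCD49f-/low over Thy-1-CD24medCD49fhigh was 1.47 ± 0.57 and was not called (limma adjusted p = 0.0586). It passed with array medians set to 0 (limma adjusted p = 0.0365), with quantile normalisation (0.0456), with probe sets tested alone (0.0128) and without CD24medCD49f-/low replicate 1 (0.0202), and its adjusted p reached 0.406 without Thy-1-CD24medCD49fhigh replicate 1.

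Over all 10 pairs of populations and 5 genes there were 50 tests, of which limma called 27. Every gene was called for both luminal populations over CD24medCD49fmed cells, where 39.6% of all features were called higher in CD24highCD49fmed and 13.2% in CD24medCD49f-/low. The largest of these differences were those of Ltf, 13.4-fold in CD24highCD49fmed and 14.4-fold in CD24medCD49f-/low. Elf5 was 13.1-fold and 8.14-fold higher, and Epcam 4.38-fold and 3.76-fold. Each gene was also called for CD24highCD49fmed over Thy-1-CD24medCD49fhigh and over Thy-1+CD24medCD49fhigh cells, where 35.7% of all features were called higher over Thy-1+CD24medCD49fhigh. CD24medCD49f-/low cells were called over both Thy-1 populations for Ehf, Cd14 and Ltf, over Thy-1+CD24medCD49fhigh only for Elf5, and over neither for Epcam. Several calls against the Thy-1 populations were lost when 1 array was left out, although among them only the CD24medCD49f-/low differences of Ehf then moved by over 1.5 times. Without Thy-1-CD24medCD49fhigh replicate 1, CD24highCD49fmed over Thy-1-CD24medCD49fhigh was no longer called for Elf5 (1.59, against 2.16 with all arrays), Cd14 (1.80 against 2.34), Ltf (1.75 against 1.97) and Epcam (1.27 against 1.45), with limma adjusted p between 0.0659 and 0.119. CD24medCD49f-/low over Thy-1-CD24medCD49fhigh was then not called for Cd14 (1.54 against 2.08), Ltf (1.85 against 2.07) and Ehf, whose difference moved most (1.24 against 1.93). Without Thy-1+CD24medCD49fhigh replicate 1, CD24highCD49fmed over Thy-1+CD24medCD49fhigh was no longer called for Elf5 (2.20 against 2.42), Ehf (2.23 against 2.86), Ltf (1.83 against 2.05) and Epcam (1.01 against 1.40), with limma adjusted p between 0.0509 and 0.175. CD24medCD49f-/low over Thy-1+CD24medCD49fhigh was then not called for Elf5 (1.52 against 1.74), Cd14 (2.10 against 2.12), Ltf (1.93 against 2.15) and Ehf (1.25 against 1.88). Without CD24highCD49fmed replicate 1, Ltf stayed at 1.86 over Thy-1-CD24medCD49fhigh and 1.94 over Thy-1+CD24medCD49fhigh and Epcam at 1.47 and 1.42, and without CD24highCD49fmed replicate 2 Epcam stayed at 1.44 and 1.38, but none of these passed. Without CD24medCD49f-/low replicate 2, Ehf was at 1.34 over Thy-1-CD24medCD49fhigh and 1.29 over Thy-1+CD24medCD49fhigh and Elf5 at 1.27 over Thy-1+CD24medCD49fhigh, none of them called. Elf5 in CD24medCD49f-/low over Thy-1+CD24medCD49fhigh also missed the threshold without Thy-1+CD24medCD49fhigh replicate 2 (1.96), as did Epcam in CD24medCD49f-/low over CD24medCD49fmed without CD24medCD49fmed replicate 2 (1.69). Epcam gained a call in CD24medCD49f-/low over Thy-1-CD24medCD49fhigh with quantile normalisation (1.35) and without CD24medCD49f-/low replicate 2 (1.57), and in CD24medCD49f-/low over Thy-1+CD24medCD49fhigh with these settings (1.31 and 1.51) and with array medians set to 0 (1.40). The calls of CD24highCD49fmed over Thy-1-CD24medCD49fhigh and over Thy-1+CD24medCD49fhigh for Epcam were also lost with array medians set to 0 (limma adjusted p = 0.0848 and 0.0574) and with quantile normalisation (0.0753 and 0.0792).

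The probe sets of Elf5 and Ehf differed in how cleanly they separated the layers. Elf5 probe set 1419555_at had a range of 5.63, with luminal arrays between 1.14 and 2.57 and basal arrays between -3.06 and 0.13. Elf5 probe set 1419556_at had a range of 3.58, and there Thy-1-CD24medCD49fhigh replicate 2 (0.28) lay above CD24medCD49f-/low replicate 1 (0.14). Their values correlated at 0.954 over the 10 arrays. The Ehf probe sets 1419474_a_at and 1451375_at had ranges of 4.81 and 5.25 with no overlap of luminal and basal arrays. Ehf probe set 1419475_a_at had a range of 2.58, and its value on CD24medCD49f-/low replicate 1, -0.45, was below 2 of the 6 basal arrays. The Ehf probe sets correlated at 0.899 to 0.973 over the 10 arrays. A suffix _a_at marks a probe set whose probes match several transcripts of a gene.

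**Figure D3:**
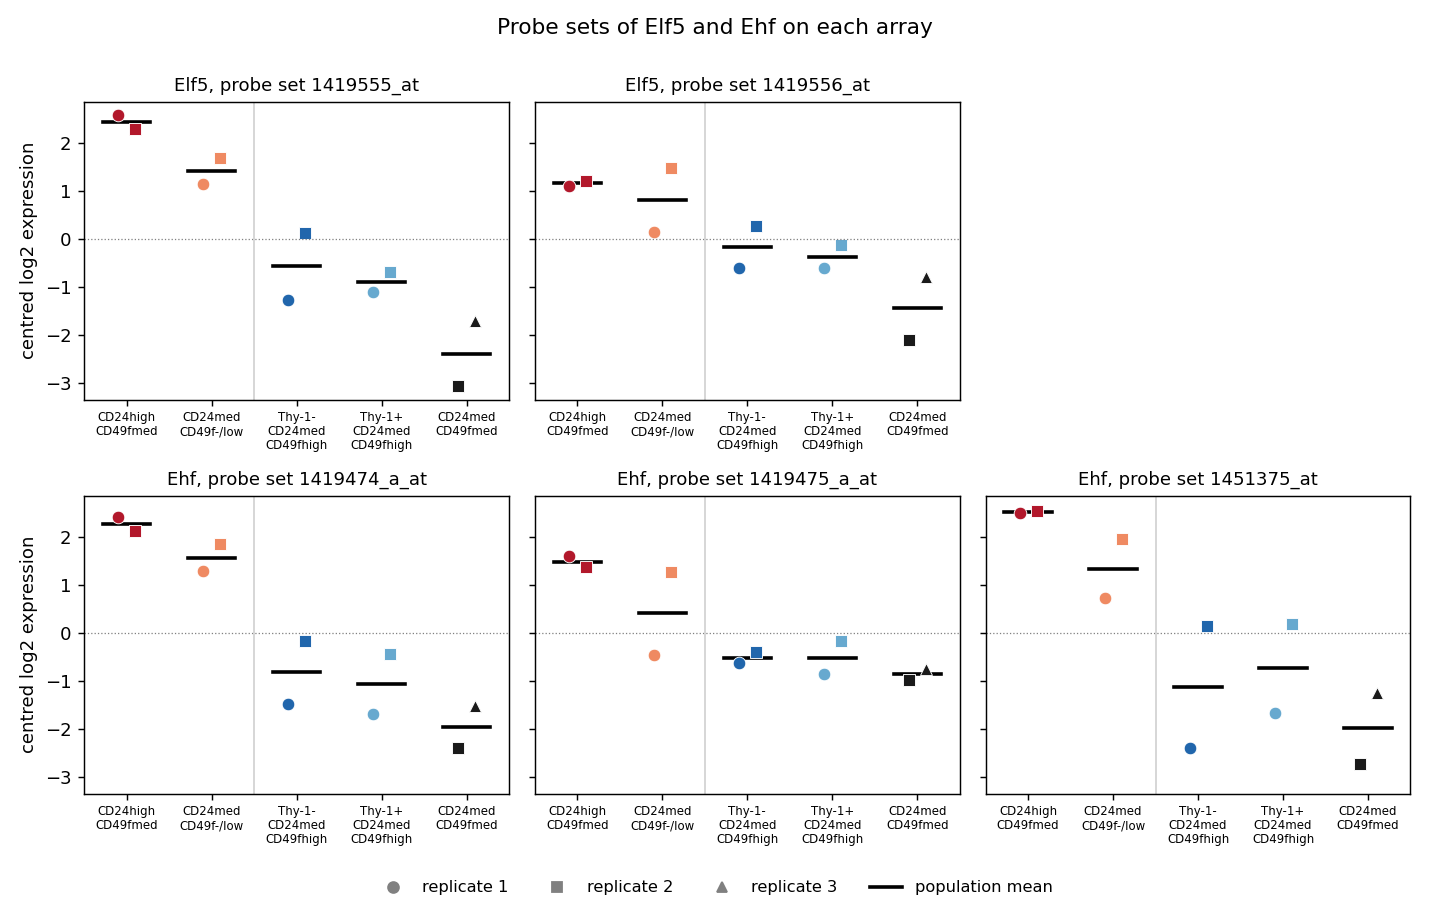
Centred log2 expression (vertical axis) of the 2 Elf5 and 3 Ehf probe sets on each array, by population (horizontal axis). Points are arrays, shaped by replicate number, and bars are population means. Luminal and basal arrays overlap for 1419556_at and 1419475_a_at and not for the other 3 probe sets.

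The 5 genes followed each other across the arrays. Pearson correlations between them ran from 0.91 for Cd14 with Epcam to 0.985 for Elf5 with Cd14 over 10 arrays, which share the layer contrast, and from 0.761 to 0.983 over the 6 basal arrays. The median correlation of a member with all other features over the 10 arrays lay between 0.099 for Ltf and 0.231 for Ehf. No such median was taken over the 6 basal arrays, so the basal correlations stand without a background. The genes most like Elf5 were Cd14, the nucleoside transporter gene Slc28a3 (0.983), Wfdc18, which encodes a small secreted protein (0.982), Ppfibp2 (0.976) and Ltf (0.971). Those most like Ehf were Aldoc, the gene for aldolase C (0.990), Nxf7, Clic6 and Cracdl (0.984 each) and Slc28a3 (0.979). Cd14 was followed most closely by Elf5, Slc28a3 (0.979), Btn1a1, which encodes butyrophilin of the milk fat globule (0.978), Ltf and Clic6. Ltf was followed by Cd14, Elf5, Kit (0.966), which encodes the receptor for stem cell factor, Glul (0.965) and Plet1 (0.963). Epcam had a different set, led by F3, which encodes tissue factor, with Gm4951 (0.988), Nfkbia, Nupr1 and Plekhh1 (0.980). Like Epcam, each of these genes was higher on CD24medCD49f-/low replicate 1 than on replicate 2, with F3 at 1.43 and 0.64. The genes named for the other members were all lower on replicate 1 than on replicate 2. A correlation above 0.9 was common, with 83 features for Ltf and 280 for Ehf out of 2931.

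Luminal progenitor markers, a list that holds Elf5, Cd14 and Ltf, had 14 of 20 genes in the table. In CD24highCD49fmed over the basal mean 11 rose and 1 fell, with a median difference of 1.94 against 0.41 over all features, and in CD24medCD49f-/low 10 rose and 2 fell, with a median of 1.66 against -0.17. Without CD24medCD49f-/low replicate 1 the count in CD24medCD49f-/low was 10 and 1, and without replicate 2 it was 6 and 2, while 15.0% and 22.9% of all features were then called higher. With all arrays and without Elf5, Cd14 and Ltf, 8 of 11 rose in CD24highCD49fmed, beside 44.0% of all features called higher. In CD24medCD49f-/low 7 of 11 rose, beside 18.3%. Wfdc18 rose by 2.49 in CD24highCD49fmed and 2.04 in CD24medCD49f-/low, Kit by 2.31 and 2.01 (1.28 without CD24medCD49f-/low replicate 2), and Plet1 by 2.28 and 2.35. Hey1, a target of Notch signalling, rose by 1.94 and 1.43, but was at 0.80 and not called in CD24medCD49f-/low without replicate 2. Slpi, which encodes a secreted protease inhibitor, went the other way, at -2.40 in CD24highCD49fmed and -2.26 in CD24medCD49f-/low, and Itgb3, which encodes the integrin CD61, was called lower in CD24medCD49f-/low (-1.66) but not without replicate 1 (-0.89). None of the 14 was called between the luminal populations, with 0 at an unadjusted p under 0.05, where their median was 0.23 against 0.35 over all features. Of 13 hormone-sensing markers 9 were in the table, of which 4 rose and 1 fell in CD24highCD49fmed, close to the 44.0% of all features called higher there, and 5 rose and 1 fell in CD24medCD49f-/low (8 and 0 without replicate 1). Those that rose in both were Foxa1 at 3.36 in CD24highCD49fmed and 3.14 in CD24medCD49f-/low over the basal mean, Prom1 at 3.31 and 2.90, Pgr at 2.17 and 2.41 and Esr1 at 2.07 and 2.14. The lists were compared by counts and medians only.

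Shared luminal markers, a list with Ehf and Epcam, had 16 of 23 genes in the table, and 8 rose in each luminal population with none lower (medians 1.18 in CD24highCD49fmed and 1.23 in CD24medCD49f-/low). Without Ehf and Epcam this was 6 of 14 in each, which in CD24highCD49fmed is close to the 44.0% of all features called higher and in CD24medCD49f-/low stands beside 18.3%. In CD24medCD49f-/low without replicate 1, 10 rose, and without replicate 2, 6 rose and 1 fell. Grhl1, a grainyhead transcription factor of epithelia, rose by 2.29 in CD24highCD49fmed and 1.79 in CD24medCD49f-/low. Gata3, the luminal transcription factor, rose by 1.46 and 1.43, and the keratin gene Krt18 by 1.54 and 1.34 (1.03 and not called in CD24medCD49f-/low without replicate 2). Krt19, at 0.63 ± 0.78 and 0.64 ± 0.78, was not called. In CD24medCD49f-/low it was at 2.00 without replicate 1 and at -0.73 without replicate 2.

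Of 26 ETS genes in the list 8 were in the table, and Elf5 and Ehf were the only 2 of these called higher in a luminal population. Of the 6 others, 0 were called higher, while 5 were called lower in CD24highCD49fmed and 4 in CD24medCD49f-/low. Of all features 44.0% were called higher and 30.6% lower in CD24highCD49fmed over the basal mean. In CD24medCD49f-/low these shares were 18.3% and 27.5%. In CD24highCD49fmed over the basal mean Elf5 and Ehf rose while Ets1 (-2.69), Etv5 (-2.56), Etv4 (-2.11), Erf (-1.64) and Elk3 (-1.32) fell. In CD24medCD49f-/low over the basal mean Elf5 and Ehf rose and Ets1 (-2.88), Etv5 (-2.10), Elk3 (-1.41) and Etv4 (-1.17) fell. Erf was not called there (-0.56), and was at 0.385 without CD24medCD49f-/low replicate 1 and at -1.50 without replicate 2. Without CD24medCD49f-/low replicate 1, Elk3 (-1.22) and Etv4 (-1.08) were no longer called. Ets1 was at -1.78 and -1.36 in CD24highCD49fmed and -2.10 and -1.44 in CD24medCD49f-/low cells. It was at 0.44 and 0.36 in Thy-1-CD24medCD49fhigh, 2.01 and 0.39 in Thy-1+CD24medCD49fhigh, and 1.78 and 1.70 in CD24medCD49fmed cells, so its luminal and basal arrays were separated in the direction opposite to Elf5. Ets2, at 0.42 ± 0.48 in CD24highCD49fmed and -0.33 ± 0.48 in CD24medCD49f-/low, was not called, but in CD24medCD49f-/low it was at 0.78 without replicate 1 and at -1.45 without replicate 2, where it was called.

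Prolactin and RANKL signalling, the pathways around Elf5, had 7 of 15 genes in the table. Of all features 44.0% were called higher and 30.6% lower in CD24highCD49fmed over the basal mean. In CD24medCD49f-/low these shares were 18.3% and 27.5%. In CD24highCD49fmed over the basal mean Elf5, the prolactin receptor kinase gene Jak2 (1.95) and Id2 (1.16) rose, while Snai2 (-3.84), a basal transcription factor, and Socs3 (-2.67), a feedback inhibitor of cytokine signalling, fell. In CD24medCD49f-/low over the basal mean Elf5, Jak2 (1.46) and Tnfsf11 (2.80), which encodes RANKL, rose, and Snai2 (-2.29) and Socs3 (-2.23) fell. Id2 was not called there (-0.49), and was at 0.15 without CD24medCD49f-/low replicate 1 and at -1.14 without replicate 2. Several of these values came mainly from 1 of the CD24medCD49f-/low arrays. Socs3 was at -3.07 and 0.57 on them, and without replicate 1 its difference was -0.41 and not called (limma adjusted p = 0.573). Tnfsf11 was at 0.58 and 3.50, and its difference was 4.26 without replicate 1 and 1.34 without replicate 2, called in both. Jak2 was at 0.88 and not called without replicate 1. Stat5a, which encodes the factor activated by Jak2, was at 0.21 ± 0.49 and 0.70 ± 0.49 and was not called, but in CD24medCD49f-/low it was called without replicate 1 (1.86) and was at -0.47 without replicate 2. Of milk genes, 6 of the 8 measured rose in CD24highCD49fmed and 4 in CD24medCD49f-/low (1 without CD24medCD49f-/low replicate 2), among them Btn1a1 (2.41 and 2.27) and Lalba (1.72 and 1.79), the gene for alpha-lactalbumin, which in CD24medCD49f-/low was at 0.99 and not called without replicate 2.

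Of 17 genes of lipopolysaccharide recognition and Toll-like receptor signalling 5 were in the table, Cd14 among them, and all 5 rose in CD24highCD49fmed over the basal mean and 4 in CD24medCD49f-/low. Without Cd14 this was 4 of 4 and 3 of 4, beside 44.0% and 18.3% of all features called higher. Tlr4, the receptor that Cd14 serves, rose by 2.77 ± 0.44 in CD24highCD49fmed (limma adjusted p = 3.35e-05) and by 2.27 ± 0.44 in CD24medCD49f-/low (limma adjusted p = 0.000438). Tlr3, which senses double-stranded RNA, rose by 2.20 and 1.39 (1.14 and not called in CD24medCD49f-/low without replicate 1), and Nfkbia, which encodes an inhibitor of NF-kappaB, by 1.50 and 1.59. Lbp, the gene for lipopolysaccharide-binding protein, rose by 1.25 in CD24highCD49fmed and was at 0.76 ± 0.48 in CD24medCD49f-/low, where it was not called with both arrays, was called without replicate 1 (1.72) and was at -0.20 without replicate 2.

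Secreted defence and iron-binding proteins, the group of Ltf, had 8 of 23 genes in the table, of which 5 rose and 2 fell in CD24highCD49fmed over the basal mean and 4 rose and 1 fell in CD24medCD49f-/low (2 and 1 without CD24medCD49f-/low replicate 2). With all arrays and without Ltf, 4 of 7 rose and 2 fell in CD24highCD49fmed, beside 44.0% of all features called higher and 30.6% lower. In CD24medCD49f-/low 3 of 7 rose and 1 fell, beside 18.3% and 27.5%. Besides Ltf and Wfdc18, Hp, which encodes haptoglobin, rose by 1.46 in CD24highCD49fmed and 1.31 in CD24medCD49f-/low, and Cp, which encodes the copper protein ceruloplasmin, rose by 1.04 in CD24highCD49fmed. Defb1, a beta-defensin gene, rose in CD24medCD49f-/low (1.36) and was at 0.19 ± 0.47 in CD24highCD49fmed. Without CD24medCD49f-/low replicate 2, Hp (0.78) and Defb1 (1.00) were not called in CD24medCD49f-/low. Slpi fell in both, and Ptx3, which encodes a soluble pattern recognition protein, fell in CD24highCD49fmed (-1.50).

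Epcam partners and epithelial adhesion genes had 14 of 16 in the table. In CD24highCD49fmed over the basal mean 7 rose and 1 fell, the hyaluronan receptor gene Cd44 (-1.24), and in CD24medCD49f-/low 7 rose and none fell. Without Epcam 6 of 13 rose in each, which in CD24highCD49fmed is close to the 44.0% of all features called higher and in CD24medCD49f-/low stands beside 18.3%. In CD24medCD49f-/low 9 rose without replicate 1, and 6 rose and 2 fell without replicate 2. The tight junction genes Ocln (2.68 in CD24highCD49fmed), Marveld2 (2.29 and 1.92) and Marveld3 (2.06 and 2.13) and the tetraspanin gene Tspan8 (2.64 and 1.77) had larger differences than Epcam. Ocln was at -1.10 and 1.99 on the CD24medCD49f-/low arrays and was not called there (1.22 ± 0.62), but was called without replicate 1 (2.77) and was at -0.32 without replicate 2. Cdh1, the gene for E-cadherin, rose by 1.49 in CD24highCD49fmed and 1.24 in CD24medCD49f-/low (1.05 and not called without CD24medCD49f-/low replicate 1). The claudin genes Cldn3 (1.08 in CD24highCD49fmed and 1.22 in CD24medCD49f-/low), Cldn4 (0.28 and 1.27) and Cldn7 (1.28 and 1.16) were not called in either with all arrays. Without CD24medCD49f-/low replicate 1 all 3 were called in CD24medCD49f-/low (2.18, 2.34 and 2.84), and without replicate 2 they were at 0.26, 0.19 and -0.52.

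**Figure D4:**
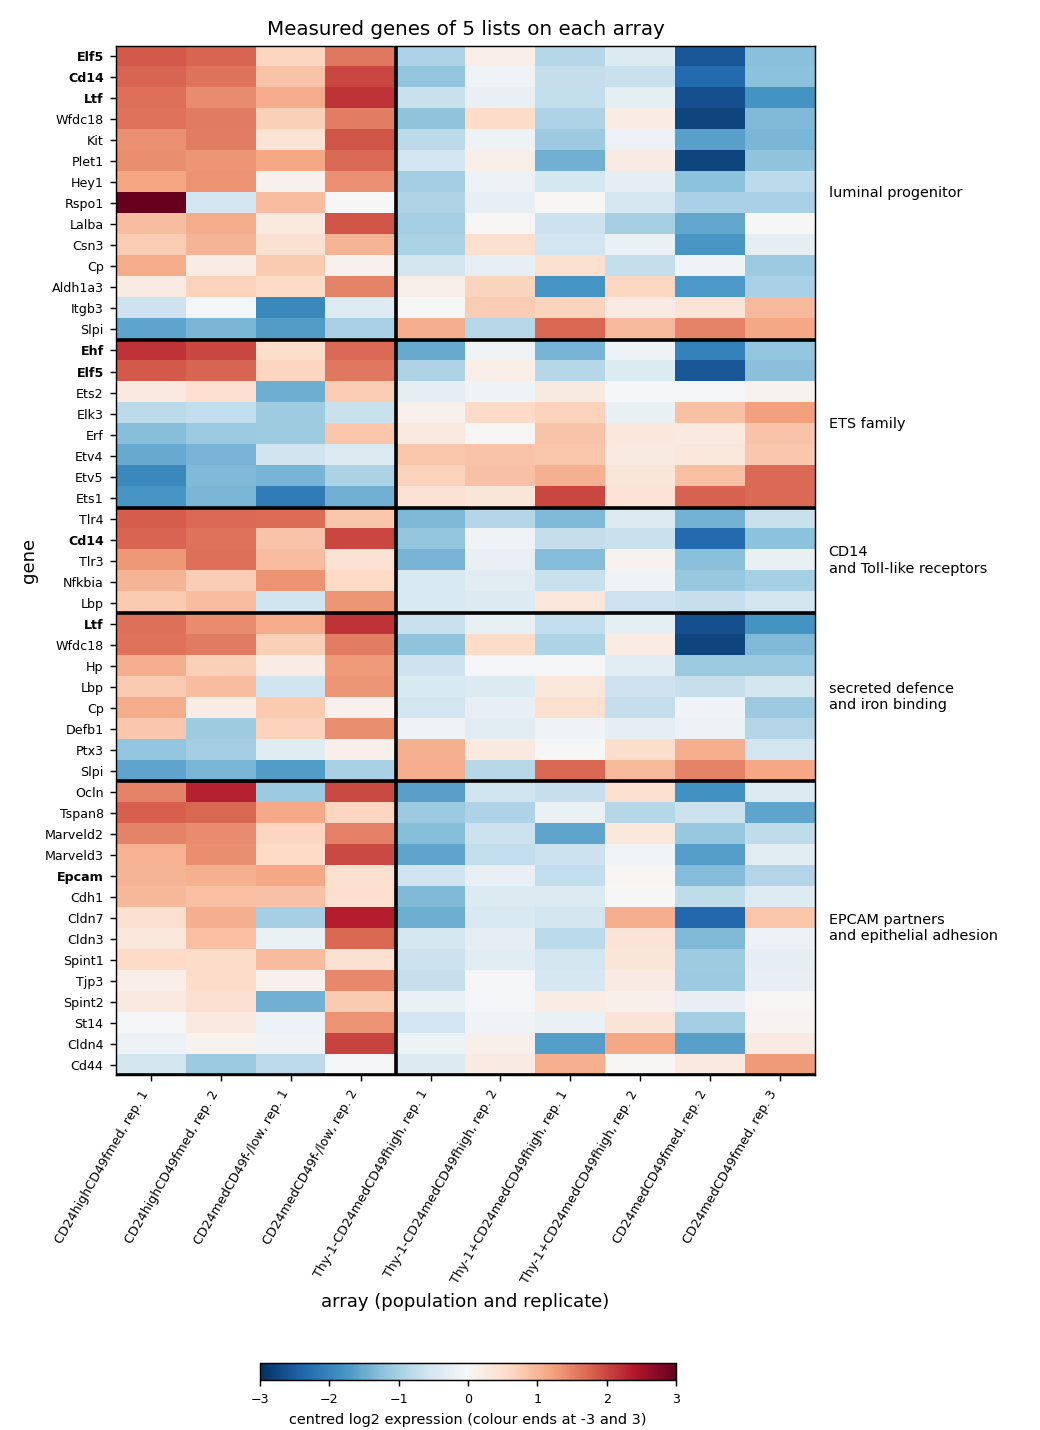
Centred log2 expression (colour) of the measured genes of 5 lists (rows, with Elf5, Ehf, Cd14, Ltf and Epcam in bold) on the 10 arrays (columns, luminal arrays left of the black line). Genes in 2 lists appear in each, and rows run from the highest to the lowest difference of CD24highCD49fmed over the basal mean within a list. Elf5 and Ehf are red in the luminal columns, where Ets1, Etv5 and Etv4 are blue.

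Cd14 and Ltf are also expressed by myeloid cells, so markers of blood cells were read beside them. Of 17 leukocyte markers only Lcp1 was in the table, at 1.92 in CD24highCD49fmed and 1.60 in CD24medCD49f-/low over the basal mean, both called, with 1.27 and no call in CD24medCD49f-/low without replicate 2. None of 12 neutrophil and none of 11 endothelial markers was in it, and the table holds only probe sets that varied by at least 2.00 on the log2 scale, so a marker that was flat or dim on all arrays would not appear. Of 11 fibroblast markers 7 were in the table, of which 6 fell and 1 rose in CD24highCD49fmed over the basal mean, with a median of -1.96. In CD24medCD49f-/low 4 fell and 1 rose, and Col6a3 was the marker that rose in both. Of all features 30.6% were called lower in CD24highCD49fmed and 27.5% in CD24medCD49f-/low. The part of these cells in the values of Cd14 and Ltf was not tested.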

How the data were processed

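RNA of 10 sorted samples was measured on Affymetrix mouse arrays after amplification from the poly(A) end. The authors deposited log2 probe set intensities, normalised over all arrays with RMA per the methods (the labels name RMA and GCRMA), filtered for a minimum level and a range of at least 2.00 on the log2 scale, and centred at 0 per probe set, which leaves differences between arrays and no abundance. Probe sets of 1 symbol were averaged per gene, which gave 2560 named genes and 372 unnamed features. A mean per population was fitted over the 10 arrays with limma 3.58.1 in R 4.3.3 (lmFit, eBayes, two-sided, 5 residual and 16.5 prior degrees of freedom), and a call is a Benjamini-Hochberg adjusted p under 0.05 over all 2932 features of a comparison. Basal mean is the mean of the 3 basal population means. The script was tested on simulated data. The labels do not say whether the replicates of a population are of different mice. The p-values therefore measure spread between arrays, which may be technical, and the number of arrays limits the precision.

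The genes named were the 5 genes, the 5 most correlated named genes of each, and up to 4 called genes of each list with the largest difference. Some list genes were named beyond this rule after their values were seen. Members and lists were chosen with earlier results of these data known. Rank products was run with 100 permutations at a p under 0.01. Other alternatives were quantile normalisation, array medians set to 0, robust variances, a replicate block, only the arrays compared, probe sets alone, a range of at least 3, and each array left out in turn. Leaving out each CD24medCD49f-/low array for the lists was added after seeing the data.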

Additional observations from a re-analysis of the deposited data

How the results depend on the processing

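The calls of Elf5, Ehf, Cd14 and Ltf in both luminal populations over the basal mean passed under every alternative. Epcam did not pass in CD24highCD49fmed under rank products (permutation p = 0.0519) nor in CD24medCD49f-/low without CD24medCD49f-/low replicate 1 (1.11). The reversed values all belong to uncalled differences. Between the luminal populations, Cd14 was at -0.225 with array medians set to 0, -0.062 with quantile normalisation and -0.316 to 0.826 on leaving out an array (lowest without CD24medCD49f-/low replicate 1). Epcam was at -0.259, -0.308 and -0.113 to 0.555 (lowest without CD24medCD49f-/low replicate 2), and Ltf at -0.63 to 0.423 on leaving out an array, with 0.010 without CD24highCD49fmed replicate 2. On leaving out an array Ehf ran from -0.317 to 1.046 in Thy-1-CD24medCD49fhigh over the other basal populations and from -0.193 to 1.068 in Thy-1+CD24medCD49fhigh. Counts of called features moved more than calls of these genes. Between the luminal populations 6 features became 20 with array medians set to 0, 0 with quantile normalisation, 0 with only the arrays compared, 11 with probe sets alone, 2 with a range of at least 3, 240 with rank products and 0 to 295 on leaving out an array. For CD24highCD49fmed over the basal mean 2189 became 637 with a range of at least 3, 927 with rank products and 1138 to 2403 on leaving out an array, lowest without CD24highCD49fmed replicate 1. For CD24medCD49f-/low over the basal mean 1342 became 584 and 852. In Thy-1-CD24medCD49fhigh 2 became 6 with only the arrays compared, 372 with rank products (3 of the 5 genes) and 0 to 7 on leaving out an array. In Thy-1+CD24medCD49fhigh 0 became 297 with rank products (1 of the 5 genes) and 0 to 5. In CD24medCD49fmed 1 became 0 with quantile normalisation, 318 with rank products (5 of the 5 genes) and 0 to 1. Neighbours called were 3, and 5 with array medians set to 0 or quantile normalisation, and 1 to 4 on leaving out an array, lowest without Thy-1-CD24medCD49fhigh replicate 1. The labels do not say whether the replicate numbers pair the samples. Correlations of the difference between replicates 2 and 1 ran from -0.198 to 0.521 over 6 pairs of populations. The highest was that of the 2 luminal populations, and these values do not decide whether samples are paired. With a replicate block 33 features were called between the luminal populations, 10 in Thy-1-CD24medCD49fhigh, 10 in Thy-1+CD24medCD49fhigh and 19 in CD24medCD49fmed, and no call of the 5 genes changed in the comparisons with the basal mean. Replicate 3 occurs only in CD24medCD49fmed, so with the block that population rests on its replicate 2 array alone. Elf5 in CD24highCD49fmed over CD24medCD49fmed was 4.67 with the block, against 3.71 in the main fit. An array left alone in its population is assumed to vary like the others.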
